A study of Sus scrofa with 18 samples.

Results

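The cell cycle and DNA replication genes described here are 68 genes that were chosen by gene symbol: the MCM, CDC, CDK, cyclin A, B, D and E, RFC, CENP, BUB, AURK, KIF and CKS families, together with RRM1, RRM2, TYMS, PCNA and TOP2A. MKI67 also belongs to that rule and was not analysed here, like CDK1, CDK4, CCND1, CCNE1, CDC6, MCM6, MCM7, BUB1, CENPA, KIF11 and RFC4. They are 68 of the 6765 genes that the array's annotation names by a single symbol, and each was read from its probe set with the highest mean over 18 arrays. Their messenger RNA was measured in 18 pig kidneys on Affymetrix arrays, 1 array per kidney, in a study of injury after transplantation, when blood returns to an organ kept without flow (ischemia and reperfusion), and of carbon monoxide (CO). The groups were CO-treated kidneys 24 h after transplantation (n = 4), untreated kidneys 24 h after transplantation (n = 4), CO-treated kidneys at 4 h (n = 4), untreated kidneys at 4 h (n = 4) and naive kidneys, which were not transplanted (n = 2). Donors 5 to 8 gave 1 CO-treated and 1 untreated kidney each at 24 h, and donors 1 to 4 did so at 4 h. Strain, age, sex, dose of CO and whether CO was given to the donor, the organ or the recipient are not given in the labels, and the naive kidneys carry no donor number. The treatment entry of the CO arrays reads air, while their titles and source names give CO, which were followed here. The time comparison is therefore also a comparison between different donors, and the labels do not say whether the naive kidneys came from separate animals.

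A cell that divides passes through a gap phase, copies its DNA, passes through a second gap phase and separates its chromosomes. Cyclins bound to cyclin-dependent kinases (CDKs) drive these steps, the MCM helicase opens the DNA for copying, and many of the genes involved are transcribed together just before the step they serve. Tubule cells of a healthy adult kidney rarely divide, and surviving tubule cells are known to re-enter the cycle after ischemic injury. The roles named below were described in human, mouse and yeast cells. By these roles 38 genes act in replication and division and 30 were kept apart, most of them with other main roles, such as CDC42, which shapes the actin skeleton, and the kinesins that carry cargo along microtubules. The 30 also hold CDKs and CDK-binding proteins with ties to the cycle, such as CDK7, which activates other CDKs.

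All values are levels on a log2 scale as the authors normalised them, so a difference of 1 is a doubling. They do not allow the level of a gene to be set against that of another gene. Of the 68 genes, 63 were above background (1.69) on all 18 arrays, and MCM3, CENPH, CENPT, CCNB2 and KIF5C were below it on at least 1. Array medians ran from 3.75 to 3.94. Groups were compared with limma over all 23999 probe sets, a gene passed at a Benjamini-Hochberg adjusted p under 0.05, and errors after ± are standard errors of the log2 change unless SD is stated. The 18 arrays fall into 4 batches by the date in their file names, and 24 h arrays share a batch with naive or 4 h arrays only through the untreated kidney of donor 5. The untreated 4 h array of donor 1 stood apart from its group and lay near the naive arrays. In tissue RNA, more cells of a kind and more RNA per cell cannot be told apart.

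Among the 68 genes, those with the largest rises against naive kidneys at 24 h were MCM2, RRM2 and TYMS, which serve DNA copying. MCM2 was higher than in naive kidneys by 2.65 ± 0.34 (6.29-fold) in CO-treated kidneys and by 2.43 ± 0.34 (5.39-fold) in untreated kidneys, RRM2 by 2.64 ± 0.67 and 2.90 ± 0.67, and TYMS by 2.11 ± 0.40 and 1.99 ± 0.40. Of the 38 replication and division genes, 16 rose in CO-treated 24 h kidneys (42.1%) and 13 in untreated 24 h kidneys (34.2%), with none lower in either. Over all probe sets 5.75% with CO and 6.79% without were called higher in the same comparisons, 5.93% and 7.77% lower, and 11.7% and 14.6% in either direction. The median change of the 38 genes was 0.90 with CO and 0.76 without, while that of all probe sets was -0.02 and 0.01. At 4 h the same 38 genes had a median of -0.11 with CO and -0.03 without, with all probe sets at -0.01 and -0.03. No gene of the 68 passed between CO-treated and untreated kidneys at either time.

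**Figure D1:**
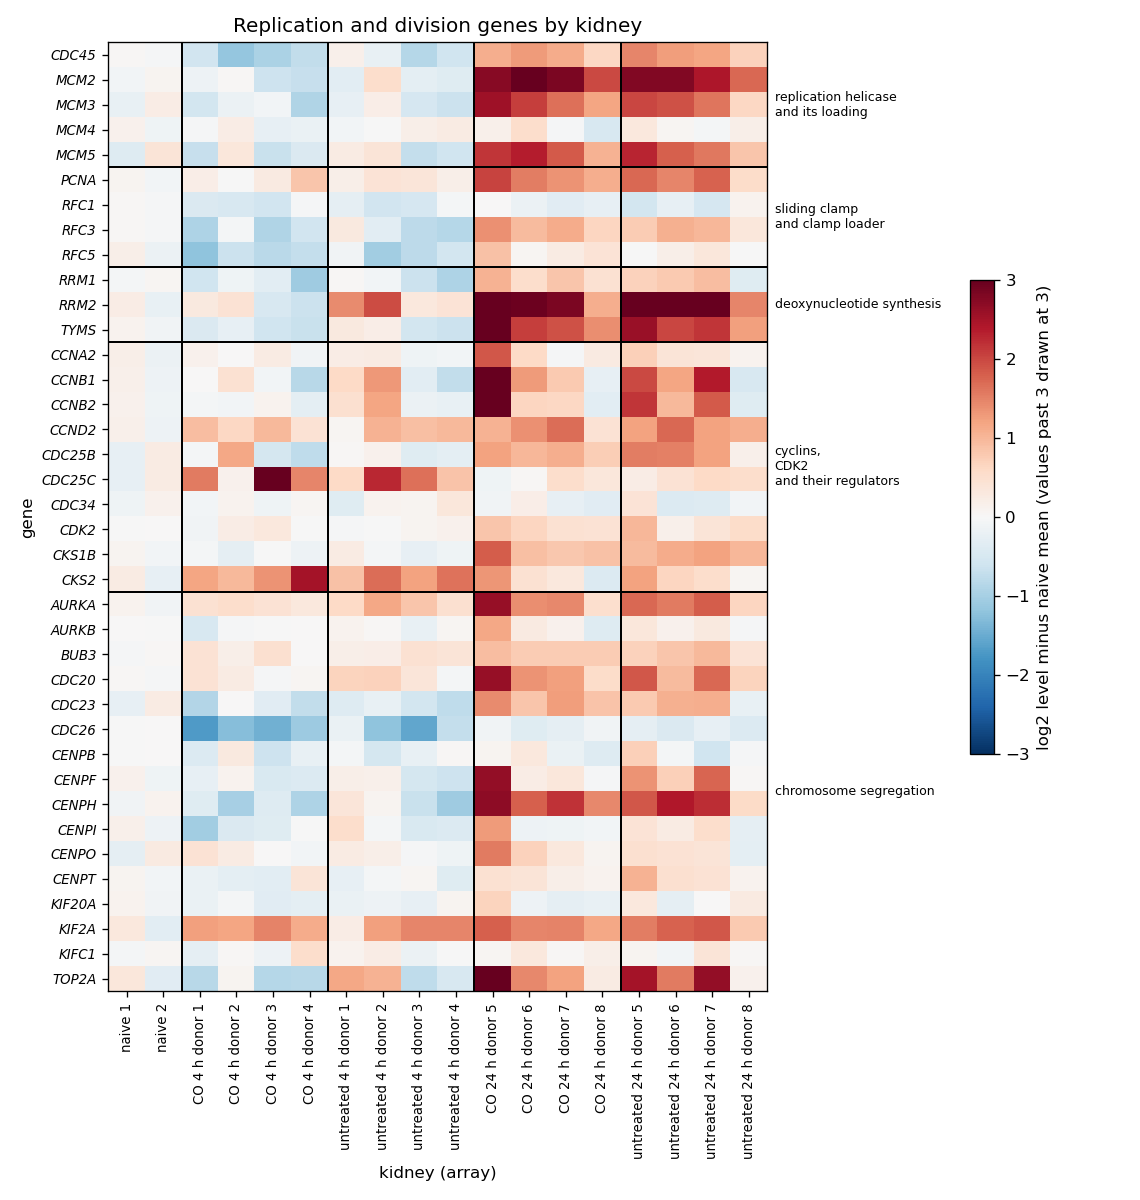
The 38 replication and division genes (rows, ordered by role) in each of 18 kidneys (columns, by group), as the log2 level minus the mean of the 2 naive kidneys, from blue (lower) to red (higher). MCM2, RRM2 and TYMS are red in all 8 kidneys at 24 h, and the columns of donor 8 are the palest of their groups.

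Of 5 helicase genes, 4 were higher at 24 h than in naive kidneys, and MCM4 was not at the probe set used. MCM2, a subunit of the helicase ring, had 6.97, 7.31, 7.07 and 6.20 in CO-treated 24 h kidneys of donors 5 to 8 and 7.01, 7.02, 6.67 and 5.95 in untreated 24 h kidneys, against 4.16 and 4.30 in naive kidneys. At 4 h it had 4.09, 4.27, 3.62 and 3.54 in CO-treated kidneys of donors 1 to 4 and 3.91, 4.76, 3.94 and 3.86 in untreated kidneys. The lowest 24 h kidney thus lay above the highest of the other 10, and the 24 h groups overlapped each other. MCM2 passed against naive kidneys (adjusted p = 0.000482 with CO and 0.000466 without, limma) and against 4 h kidneys, by 3.01 ± 0.28 with CO (adjusted p = 3.89e-05) and by 2.55 ± 0.28 without (adjusted p = 0.00013).

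MCM5, another ring subunit, had 5.82, 6.04, 5.53 and 4.73 in CO-treated and 5.99, 5.49, 5.27 and 4.51 in untreated kidneys at 24 h, against 3.30 and 4.08 in naive kidneys. Both 24 h groups were above naive kidneys without overlap, by 1.84 ± 0.44 with CO and 1.63 ± 0.44 without. MCM3 rose by 1.86 ± 0.39 with CO and by 1.53 ± 0.39 without. CDC45, which joins the ring and activates it, rose by 1.03 ± 0.27 and 1.15 ± 0.27 in the same comparisons. Against 4 h kidneys, MCM5, MCM3 and CDC45 rose by 2.20, 2.30 and 1.88 with CO and by 1.80, 1.83 and 1.53 without, and the adjusted p of these 6 changes lay at or under 0.00509.

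The fifth helicase gene, MCM4, gave no such change at the probe set used, with 4.21 ± 0.42 in CO-treated and 4.30 ± 0.16 in untreated 24 h kidneys (SD, n = 4 each), against 4.17 ± 0.17 in naive kidneys (SD, n = 2). Its dimmer probe set was higher than in naive kidneys by 2.11 with CO (adjusted p = 0.00127, limma) and by 1.72 without (adjusted p = 0.0026). The 2 probe sets of MCM4 therefore disagree. The 3 probe sets of MCM2 gave 2.65, 1.28 and -0.11 with CO and 2.43, 1.23 and 0.06 without, in order of brightness, and the dimmest, with a mean of 1.25, was below background. The 2 dimmer probe sets of MCM5 gave 1.30 and 0.80 with CO and 1.32 and 0.86 without, of which the values of 1.30 and 1.32 passed. The second probe set of CDC45 gave 0.43 with CO and 0.42 without, and neither passed.

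Around the replication fork, the sliding clamp rose and its loader rose in part. PCNA, the clamp that holds the polymerase on DNA, had 8.11, 7.62, 7.42 and 7.16 in CO-treated and 7.79, 7.54, 7.83 and 6.63 in untreated 24 h kidneys, against 6.15 and 6.00 in naive kidneys. Every 24 h kidney was above both naive kidneys, and the untreated kidney of donor 8 was the lowest of the 8. The change was 1.50 ± 0.31 with CO (adjusted p = 0.0059, limma) and 1.37 ± 0.31 without (adjusted p = 0.00742). Among the loader subunits, RFC3 rose with CO (1.01 ± 0.31, adjusted p = 0.0457) and had 0.80 ± 0.31 without (adjusted p = 0.102), while RFC5 had 0.39 and 0.13 and RFC1 -0.19 and -0.30, none of which passed. Against 4 h kidneys RFC3 rose by 1.62 with CO and 1.22 without, and RFC5 by 1.24 and 0.75. At 4 h the means of both genes had lain under the naive mean.

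Of the genes that make deoxynucleotides, RRM2 and TYMS were above naive kidneys in every 24 h kidney. RRM2, the small subunit of ribonucleotide reductase and the one that limits the enzyme outside of DNA copying, had 6.06, 5.29, 5.16 and 3.44 in CO-treated 24 h kidneys and 6.08, 5.50, 5.62 and 3.81 in untreated 24 h kidneys, against 2.58 and 2.12 in naive kidneys. At 4 h it had 2.64, 2.78, 1.88 and 1.71 in CO-treated and 3.75, 4.30, 2.66 and 2.75 in untreated kidneys. The kidneys of donor 8 were the lowest of their groups by a wide gap, and the untreated 4 h kidney of donor 2 was above both of them. RRM2 passed against naive kidneys (adjusted p = 0.0175 with CO and 0.00844 without, limma) and against 4 h kidneys, by 2.73 ± 0.54 with CO (adjusted p = 0.00324) and by 1.89 ± 0.54 without (adjusted p = 0.0369).

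TYMS, which makes thymidylate, had 6.38, 5.38, 5.23 and 4.71 in CO-treated and 5.90, 5.31, 5.47 and 4.54 in untreated 24 h kidneys, against 3.42 and 3.21 in naive kidneys. All 8 were above the highest 4 h kidney, which had 3.60. RRM1, the large subunit of ribonucleotide reductase, did not pass against naive kidneys, with 0.71 ± 0.34 with CO (adjusted p = 0.204, limma) and 0.51 ± 0.34 without (adjusted p = 0.372). It rose against 4 h kidneys, by 1.24 ± 0.28 with CO (adjusted p = 0.00679) and by 0.92 ± 0.28 without (adjusted p = 0.0493).

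**Figure D2:**
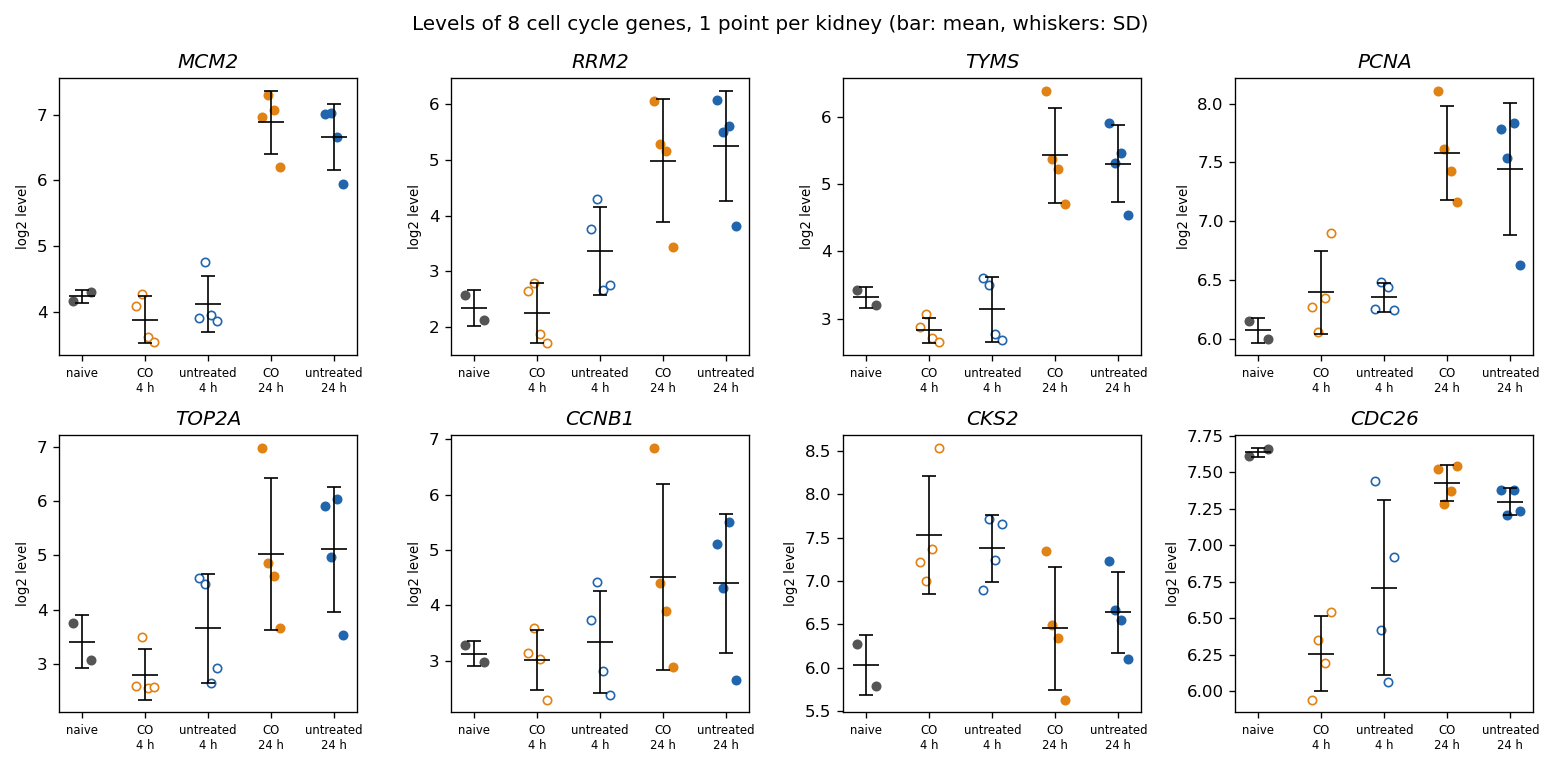
Log2 level of 8 genes, 1 point per kidney, by group, with a bar at the group mean and whiskers of 1 SD (n = 2 naive kidneys, n = 4 in the other groups). MCM2 and TYMS at 24 h lie above all naive and 4 h kidneys, TOP2A and CCNB1 at 24 h spread down to the naive levels, and CKS2 has its highest group means and CDC26 its lowest at 4 h.

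The cyclins of late cycle phases did not pass, although single kidneys were high. CCNB1, cyclin B1, which with its kinase starts mitosis, had 6.84, 4.40, 3.91 and 2.88 in CO-treated and 5.11, 4.31, 5.51 and 2.66 in untreated 24 h kidneys, against 3.29 and 2.97 in naive kidneys. Each 24 h group held a kidney above 5 and, in donor 8, a kidney under both naive kidneys, and the change was 1.37 ± 0.88 with CO (adjusted p = 0.359, limma) and 1.26 ± 0.88 without (adjusted p = 0.391). CCNB2, cyclin B2, had 1.05 ± 0.75 and 1.15 ± 0.75, and CCNA2, cyclin A2 of the copying phase, had 0.67 ± 0.36 and 0.39 ± 0.36, and none of these passed. CCND2, a D-type cyclin that acts before copying starts, rose by 1.13 ± 0.31 with CO (adjusted p = 0.0284) and by 1.31 ± 0.31 without (adjusted p = 0.0112).

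Among the partners of the kinases, CKS1B, a small protein that binds CDKs, had 7.20, 6.28, 6.20 and 6.27 in CO-treated and 6.34, 6.50, 6.58 and 6.37 in untreated 24 h kidneys, against 5.46 and 5.30 in naive kidneys. No 24 h kidney overlapped the naive or 4 h kidneys, of which the highest had 5.62. The rise was 1.10 ± 0.23 with CO and 1.06 ± 0.23 without (adjusted p = 0.0058 and 0.00531, limma). CDK2 itself, the kinase of the copying phase, had 0.59 ± 0.20 with CO (adjusted p = 0.0598) and 0.52 ± 0.20 without (adjusted p = 0.086) and rose against 4 h kidneys with CO (0.48 ± 0.16, adjusted p = 0.0459). The CDK2 change against 4 h kidneys without CO was smaller by only 0.003. CDC25B, a phosphatase that activates CDKs, had 1.01 ± 0.43 and 1.10 ± 0.43 against naive kidneys and rose against 4 h kidneys without CO (1.22 ± 0.35, adjusted p = 0.0384). With CO it had 1.05 ± 0.35 against 4 h kidneys (adjusted p = 0.0502), which passed with donor as a block (adjusted p = 0.0453, limma). The phosphatase CDC25C (0.20 and 0.44) and the ubiquitin-conjugating enzyme CDC34 (-0.12 and -0.12) did not pass against naive kidneys.

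Next to the CDKs stand the genes that part the chromosomes. Of 16 genes of chromosome segregation, 6 rose against naive kidneys with CO at 24 h (37.5%) and 4 without (25%). Of all probe sets, 5.75% and 6.79% were called higher. CENPH, a protein of the inner kinetochore, had 5.30, 4.40, 4.78 and 4.05 in CO-treated and 4.47, 5.02, 4.85 and 3.20 in untreated 24 h kidneys, against 2.52 and 2.72 in naive kidneys. The 24 h kidneys all lay above the naive kidneys, by 2.02 ± 0.47 with CO (adjusted p = 0.0115, limma) and 1.77 ± 0.47 without (adjusted p = 0.0185). The spindle kinase AURKA rose by 1.49 ± 0.41 and 1.43 ± 0.41, the microtubule-shortening kinesin KIF2A by 1.48 ± 0.34 and 1.49 ± 0.34, and the spindle checkpoint protein BUB3 by 0.80 ± 0.17 and 0.73 ± 0.17. CDC20 and CDC23, an activator and a subunit of the complex that marks mitotic proteins for destruction, rose with CO (1.44 ± 0.43 and 1.08 ± 0.33) and had 1.30 ± 0.43 and 0.68 ± 0.33 without (adjusted p = 0.0501 and 0.19). With donor as a block, CDC20 passed without CO too (adjusted p = 0.0423, limma).

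TOP2A, the topoisomerase that untangles chromosomes, had 6.98, 4.85, 4.62 and 3.66 in CO-treated and 5.90, 4.97, 6.04 and 3.53 in untreated 24 h kidneys, against 3.76 and 3.07 in naive kidneys. The kidneys of donor 8 lay between the naive kidneys, and the changes of 1.61 ± 0.80 with CO (adjusted p = 0.217, limma) and 1.70 ± 0.80 without (adjusted p = 0.176) did not pass. TOP2A rose against 4 h kidneys with CO (2.22 ± 0.65, adjusted p = 0.0273) and had 1.46 ± 0.65 without (adjusted p = 0.188). CENPF, a kinetochore protein of late phases, had 0.79 ± 0.58 and 0.96 ± 0.58 against naive kidneys. AURKB, KIF20A, KIFC1, CENPB, CENPI and CENPO, all with parts in mitosis or the centromere, had changes from -0.05 to 0.66 with CO and from 0.01 to 0.25 without, and none passed. CENPT was below background in all 4 untreated 4 h kidneys and at least 1.38-fold higher in untreated 24 h kidneys (adjusted p = 0.0341), where the bound was taken from the lowest level that counts as above background.

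The 24 h groups were also set against the 4 h groups, a comparison that uses no naive kidney. With CO, 19 of 38 replication and division genes rose (50%) and none fell, at a median of 1.06, while 10.2% of all probe sets were called higher, 7.44% lower and 17.6% in either direction. Without CO, 15 of 38 rose (39.5%) and none fell, at a median of 0.71, while 5.15% of all probe sets were called higher, 4.57% lower and 9.72% in either direction. All 3 genes of deoxynucleotide synthesis and 4 of 5 helicase genes rose in each. Of all 68 genes, 26 passed with CO and 19 without, and 15 were called in both (15 of 26 and 15 of 19), where the 24 h kidneys of both comparisons came from the same 4 donors and the 4 h kidneys from the other 4.

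Which samples enter the test bears on these counts. Without naive array 1 or naive array 2, the members that passed at 24 h fell to 5 and 6 of 68 with CO, against 20 with both, and to 5 and 3 without CO, against 18. A lone naive array was then assumed to vary like the other groups. With batch as a term in the fit, 0 members passed with CO at 24 h against naive or 4 h kidneys, 0 without CO against 4 h kidneys and 2 without CO against naive kidneys, MCM2 (2.50 ± 0.44) and CDC42, and over all probe sets 0, 0, 0 and 159 passed. Within the batch that holds naive 2 and the untreated kidneys of donors 2 and 5, the kidney of donor 5 was higher than naive 2 by 2.71 for MCM2, 3.96 for RRM2, 2.70 for TYMS and 1.79 for PCNA, and higher than that of donor 2 by 2.26, 1.78, 2.40 and 1.30. All 18 members called without CO against naive kidneys and all 19 called against 4 h kidneys had the same sign within that batch, with 1 kidney a group and no test. The arrays of that batch also entered the fit that made the calls, so the shared signs are no separate check. CO-treated 24 h kidneys share no batch with naive or CO-treated 4 h kidneys, so there batch and group cannot be told apart within a batch. Without the untreated 24 h kidney of donor 5, the members that passed without CO against 4 h kidneys were 12.

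**Figure D3:**
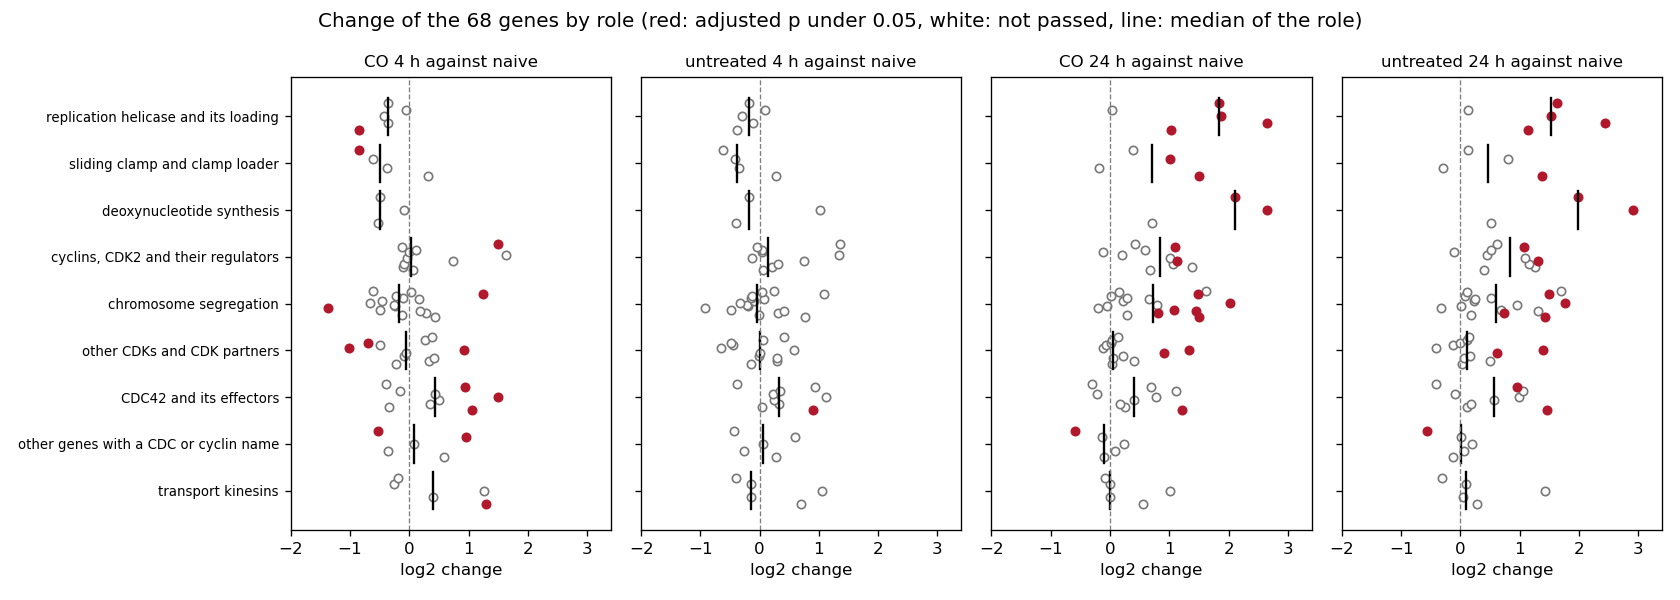
Log2 change against naive kidneys of each of 68 genes, by role (rows) and transplanted group (panels), with red points for genes at an adjusted p under 0.05, white points for the others and a line at the median of each role. At 24 h the helicase and deoxynucleotide genes lie furthest right, with medians of 1.84 and 2.11 with CO and 1.53 and 1.99 without. The medians of the 4 roles kept apart from replication and division run from -0.10 to 0.41 with CO and from 0.01 to 0.56 without.

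At 4 h fewer of these genes passed against naive kidneys than at 24 h, with and without CO, and the calls with CO had both signs. In CO-treated 4 h kidneys, 14 of 68 genes passed against naive kidneys, 8 higher and 6 lower (20.6%), while 13.6% of all probe sets did (6.84% higher and 6.72% lower). Of the 38 replication and division genes, CKS2 and KIF2A rose and RFC5, CDC45 and CDC26 fell. In untreated 4 h kidneys only CDC42 passed in limma, with 1.5% of all probe sets called (0.942% higher and 0.563% lower) and 0 of the 38 passed. At an unadjusted p under 0.05 stood 17 of 68 members (25%) and 6 of the 38 (15.8%), with 20.7% of all probe sets. With batch as a term, 10 of the 14 calls with CO remained. The count with CO was 1 without naive array 1, 0 without naive array 2, 5 without the kidney of donor 1 and 5 without that of donor 3. Without the untreated kidney of donor 1, 12 members passed in the untreated group, and 0 did so without any 1 of the other 5 arrays of that comparison.

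CDC26, a small subunit of the complex that triggers the exit from mitosis, had 5.94, 6.36, 6.19 and 6.55 in CO-treated and 7.44, 6.42, 6.07 and 6.92 in untreated 4 h kidneys, against 7.61 and 7.66 in naive kidneys. All 8 were below both naive kidneys, and the change was -1.38 ± 0.27 with CO (adjusted p = 0.00718, limma) and -0.92 ± 0.27 without (adjusted p = 0.0738). At 24 h it had -0.21 and -0.34 against naive kidneys and, with CO, rose against 4 h kidneys by 1.17 ± 0.22. CDC45 and RFC5, which at 24 h stood above their 4 h levels, fell with CO at 4 h by 0.85 ± 0.27 and 0.84 ± 0.26 (adjusted p = 0.0444 and 0.0399) and had -0.39 and -0.62 without.

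CKS2, a small CDK-binding protein like CKS1B, followed another course. It had 7.22, 7.00, 7.37 and 8.54 in CO-treated and 6.90, 7.72, 7.24 and 7.66 in untreated 4 h kidneys, against 6.28 and 5.78 in naive kidneys. Every 4 h kidney was above both naive kidneys, with a rise of 1.50 ± 0.45 with CO (adjusted p = 0.0358, limma) and 1.35 ± 0.45 without, which did not pass (adjusted p = 0.104). At 24 h it had 0.42 with CO and 0.61 without against naive kidneys, and -1.08 ± 0.36 (adjusted p = 0.0504) and -0.74 ± 0.36 against 4 h kidneys, and none of these passed. With donor as a block the change with CO against 4 h kidneys did (adjusted p = 0.0437, limma). KIF2A rose at 4 h with CO by 1.25 ± 0.34 (adjusted p = 0.0245) and had 1.09 ± 0.34 without (adjusted p = 0.0862). CDC25C had its highest levels at 4 h, from 2.53 to 5.76 with CO and from 3.00 to 4.68 without, against 2.16 and 2.66 in naive kidneys, and did not pass in either group (adjusted p = 0.0797 and 0.21).

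Whether CO changed these genes was asked within each time, where each donor gave a kidney to each group. At 24 h the 38 genes had a median difference of 0.07 (CO minus untreated), with 22 higher and 16 lower, and at 4 h of -0.11, with 10 higher and 28 lower. In limma 0 of 68 members and 0% of all probe sets passed at either time, with 1 member at an unadjusted p under 0.05 at 24 h (1.47%) and 3 at 4 h (4.41%), and 1.17% and 3.28% of all probe sets. The 95% intervals of the 38 differences held 0 in 38 cases at 24 h and in 37 at 4 h, and their full width had a median of 1.15 and ran from 0.58 to 3.03, so that the median interval reached 0.58 to either side of its estimate. These intervals come from the fit without the donor pairing. The exception at 4 h was CDC45, with -0.47 and an interval of -0.93 to -0.0059 (adjusted p = 0.999).

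RRM2 had the largest difference at 4 h among the 68 genes, -1.11 with an interval of -2.26 to 0.04 (adjusted p = 0.999, limma), and was lower in the CO-treated kidney of all 4 donors, by 1.11, 1.51, 0.78 and 1.03. At 24 h it was lower in all 4 donors again, by 0.02, 0.21, 0.45 and 0.37, with -0.26 and an interval of -1.41 to 0.89. In a limma fit with donor as a fixed term, chosen after seeing the data, the interval of RRM2 was -1.44 to -0.78 at 4 h (adjusted p = 0.0732) and -0.59 to 0.06 at 24 h (adjusted p = 1), and 0 of 68 members passed at either time, with 1 and 0 of all probe sets. At 4 h the intervals of RRM2, CDC45 and TOP2A excluded 0 in that fit and at 24 h that of CENPO, and 7.35% of the members and 4.61% of all probe sets had an unadjusted p under 0.05 at 4 h. Within batches the difference of RRM2 was -0.98 and -1.51 at 4 h, and -0.09 at 24 h in the batch with 3 kidneys of each group. Of the 38 genes, 5 were lower with CO in all 4 donors at 4 h (RRM2, TOP2A, TYMS, CDC45 and AURKA) and CENPO was higher in all 4. At 24 h, RRM2, CDC25C and CENPT were lower in all 4 donors and MCM3 was higher, by a mean of 0.33 with an unpaired interval of -0.35 to 1.01. Over all probe sets, 5.87% were lower and 5.71% higher in all 4 donors at 4 h, and 4.29% and 4.84% at 24 h. The difference between the effects of CO at 24 h and at 4 h was tested as an interaction, and 0 of 68 members passed in limma, with 0 at an unadjusted p under 0.05 and 612 of all probe sets at that level. RRM2 had 0.85 in it, with an unpaired interval of -0.78 to 2.47. With donor as a fixed term the intervals of RRM2 (0.38 to 1.31) and MCM2 (0.01 to 0.92) excluded 0, with 0 members passing (adjusted p = 0.959 for both, limma), and 4.41% of the members and 4.07% of all probe sets had an unadjusted p under 0.05.

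The replication and division genes spread by donor at 24 h. The mean of the 38 genes above the naive mean was 1.55, 0.92, 0.81 and 0.41 in CO-treated kidneys of donors 5 to 8 and 1.17, 0.93, 1.06 and 0.32 in untreated kidneys, against -0.15 to 0.03 in CO-treated and -0.11 to 0.32 in untreated kidneys at 4 h. Donor 8 had the lowest level of its group in 27 of 38 genes with CO and in 28 without. Donor 5 had the highest in 28 with CO and in 18 without, where donor 7 had it in 15. No test was made of the donors, which have 1 kidney in each group.

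Markers of other cells were read in the same kidneys, and their part in the results was not tested. Of 12 granulocyte and macrophage markers, 5 rose against naive kidneys at 24 h with CO (41.7%) and 7 without (58.3%). Over all probe sets 5.75% and 6.79% were called higher. The mean of the 12 ran from 0.59 to 2.40 with CO and from 1.26 to 2.61 without, against -0.25 and 0.25 in naive kidneys. At 4 h it ran from 0.55 to 0.93 with CO and from 0.64 to 2.29 without. Of the 38 replication and division genes, 2 had then passed as higher and 3 as lower with CO, and none without. Of 11 lymphocyte markers, 0 passed at 24 h with CO in limma (2, or 18.2%, at an unadjusted p under 0.05, with 25.9% of all probe sets) and 2 rose without, and their mean ran from -0.07 to 1.93 with CO and from 0.09 to 2.35 without. Donor 8 had the lowest mean of both lists in each 24 h group, 0.59 and -0.07 with CO and 1.26 and 0.09 without, as it had for the 38 genes. Donor 5, highest for the 38 genes with CO at 1.55, had 1.66 and 0.78 there, under donors 6 and 7. All 5 proximal tubule markers fell in both 24 h groups, with a mean of -3.78 to -2.54 with CO and of -4.81 to -3.43 without. Over all probe sets 5.93% and 7.77% were called lower. In each 24 h group 1 of 8 endothelial and 1 of 7 stromal markers rose against naive kidneys. Of 2 loop and distal nephron markers 1 fell in each, and 0 of 3 erythroid markers passed in limma. No marker of these lists was at background on all 18 arrays.

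**Figure D4:**
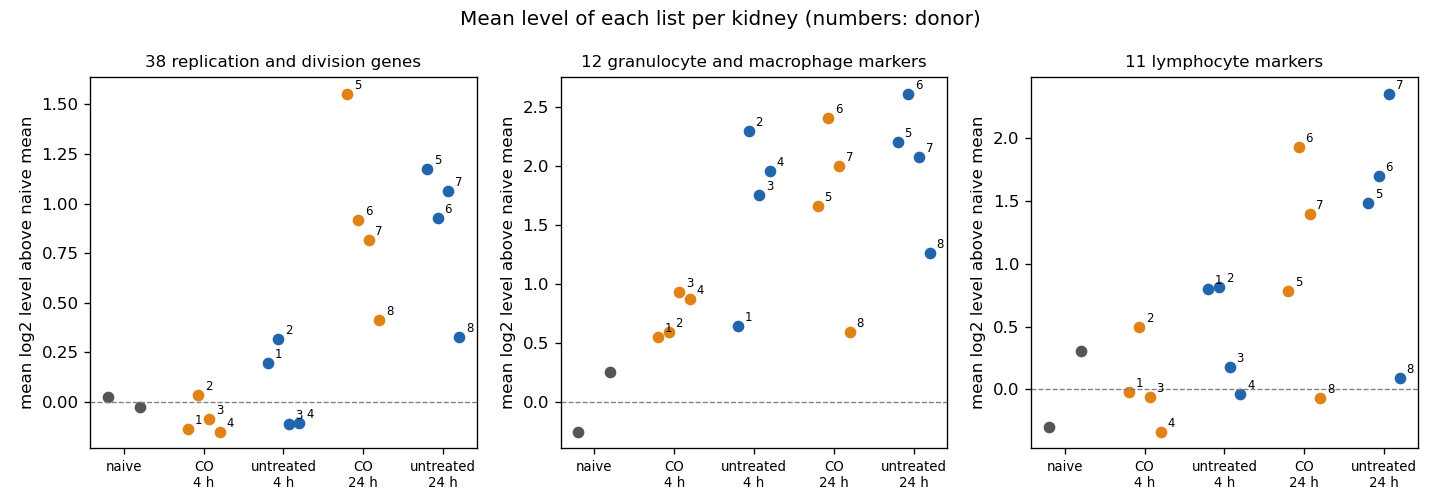
Mean log2 level above the naive mean, 1 point per kidney with its donor number, for the 38 replication and division genes, 12 granulocyte and macrophage markers and 11 lymphocyte markers. The 38 genes lie above the naive and 4 h kidneys at 24 h in all 8 kidneys, of which the 2 of donor 8 are the lowest. The untreated kidney of donor 8, at 0.325, is barely above the untreated 4 h kidney of donor 2, at 0.316. The granulocyte and macrophage markers are already between 0.55 and 2.29 at 4 h.

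The 30 genes with other roles had fewer calls at 24 h and more at 4 h than the 38. At 24 h 4 of 30 passed with CO (13.3%) and 5 without (16.7%), and at 4 h 9 with CO (30%) and 1 without (3.33%), against 5 of 38 (13.2%) and 0 of 38 at 4 h. Over all probe sets 11.7% with CO and 14.6% without were called at 24 h, near the shares of the 30. At 4 h these were 13.6% and 1.5%. The median change of the 30 genes against naive kidneys was 0.11 with CO and 0.10 without at 24 h, and 0.30 and 0.14 at 4 h. CDC42, a small GTPase of cell shape and polarity, had 8.22, 7.72, 8.02 and 7.67 in CO-treated and 8.19, 8.23, 8.12 and 8.10 in untreated 24 h kidneys, against 6.94 and 6.46 in naive kidneys. It was higher in every transplanted kidney than in either naive kidney and passed in all 4 comparisons, by 1.21 ± 0.19 with CO and 1.46 ± 0.19 without at 24 h and by 1.06 ± 0.19 and 0.89 ± 0.19 at 4 h. Its effectors CDC42EP2 (1.49 ± 0.40) and CDC42SE1 (0.94 ± 0.28) rose with CO at 4 h, CDC42SE1 also without CO at 24 h (0.95 ± 0.28), and CDC42EP5 against 4 h kidneys with CO (1.27 ± 0.31). Neither CDC42EP2 nor CDC42SE1 passed in untreated 4 h kidneys, yet CO minus untreated at 4 h was only 0.38 and 0.01. CDC42BPA, CDC42BPB, CDC42EP1, CDC42EP3 and CDC42SE2 passed in no comparison.

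Of 11 other CDKs and CDK partners, CDK2AP1 and CDK2AP2, which bind CDK2, rose at 24 h, CDK2AP1 by 0.90 ± 0.16 with CO and 0.62 ± 0.16 without and CDK2AP2 by 1.33 ± 0.27 and 1.39 ± 0.27. CDK2AP2 also rose with CO at 4 h (0.92 ± 0.27) and did not pass without, where CO minus untreated was 0.34. CDK5, a kinase best known from neurons, and CDK5RAP3, a protein named for binding a CDK5 activator, fell with CO at 4 h by 1.02 ± 0.28 and 0.69 ± 0.14 and were above those levels at 24 h by 0.91 ± 0.23 and 0.70 ± 0.11. In untreated 4 h kidneys CDK5 and CDK5RAP3 did not pass, and CO minus untreated at 4 h was -0.37 and -0.21. CDK5RAP3 also rose without CO against 4 h kidneys, by 0.47 ± 0.11, and CDK5RAP1 did so with CO, by 0.42 ± 0.13. The transcription kinases CDK7, CDK9 and CDK13, and CDK10, CDK11B and CDK16, passed in no comparison. CDC5L, a splicing factor, was lower than in naive kidneys at 24 h (-0.60 ± 0.17 with CO and -0.57 ± 0.17 without) and with CO at 4 h (-0.52 ± 0.17, adjusted p = 0.0492 in limma and 0.0569 with donor as a block). The chaperone partner CDC37L1 (0.95 ± 0.26) and the kinesin KIF21A (1.29 ± 0.30) rose with CO at 4 h and were lower at 24 h than at 4 h by -1.08 ± 0.21 and -0.73 ± 0.24. With donor as a block KIF21A missed the threshold there (adjusted p = 0.0556, limma). In untreated 4 h kidneys CDC37L1 and KIF21A did not pass, and CO minus untreated at 4 h was 0.36 and 0.58. CCNB1IP1, CDC123, CDC37, KIF3A, KIF5B, KIF5C and KIFAP3 passed nowhere.

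Other genes of the cell cycle that were no members were read from 5 lists. Among 6 CDK inhibitors, CDKN1A, the p53-regulated inhibitor p21, was higher than in naive kidneys at 4 h by 3.39 ± 0.54 with CO and 2.87 ± 0.54 without, and at 24 h by 2.02 ± 0.54 and 2.40 ± 0.54. CDKN3, a phosphatase of CDKs, rose at 24 h by 1.68 ± 0.45 and 1.73 ± 0.45, and CDKN1B, the inhibitor p27 of resting cells, fell by 0.91 ± 0.26 and 0.88 ± 0.26. CDKN3 had already risen at 4 h with CO, by 2.06 ± 0.45, and did not pass at 4 h without. CDKN1A and 4 of 5 helicase genes were thus above naive kidneys together at 24 h. At 4 h CDKN1A had passed as higher, and no helicase or deoxynucleotide gene had. RRM2 had 1.02 at 4 h without CO, with every kidney of that group above both naive kidneys, and did not pass. Of 8 E2F, RB and MYB factors, MYC, a growth factor-induced regulator, and MYBL2, an activator of late-phase genes, rose at 24 h (MYC 2.30 ± 0.51 with CO and 2.63 ± 0.51 without, MYBL2 2.56 ± 0.48 and 2.71 ± 0.48) and RBL2, a repressor of cycle genes in resting cells, fell (-1.12 ± 0.28 and -1.09 ± 0.28). MYC had also risen at 4 h, by 2.95 ± 0.51 with CO and 2.64 ± 0.51 without. RBL2 was already lower at 4 h with CO (-1.18 ± 0.28) and did not pass at 4 h without.

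Of 21 genes of replication origins, polymerases and the fork, 6 rose and 1 fell against naive kidneys at 24 h with CO (33.3%). Without CO 3 rose and 1 fell (19%). Of all probe sets 11.7% with CO and 14.6% without were called, and the share without CO was near the latter. ORC1, a subunit of the complex that marks origins, rose by 2.81 ± 0.49 with CO and 2.49 ± 0.49 without, and POLA2, a subunit of the priming polymerase, by 1.46 ± 0.27 and 1.42 ± 0.27. PRIM2, the large subunit of primase, fell by 1.99 ± 0.44 and 2.34 ± 0.44, against the direction of POLA2. PRIM2 was already lower at 4 h with CO (-1.49 ± 0.44) and did not pass at 4 h without. At 4 h RPA2, which coats single-stranded DNA, fell by 1.31 ± 0.21 with CO and 0.91 ± 0.21 without. In the list of chromosome structure and damage checkpoint genes, 4 of 9 rose in each 24 h group (44.4%) and none fell. Higher calls made up 5.75% of all probe sets with CO and 6.79% without. CHEK1, a kinase that guards replication, rose by 2.37 ± 0.24 with CO and 2.15 ± 0.24 without, and FANCD2, of DNA crosslink repair, by 1.44 ± 0.32 and 1.35 ± 0.32.

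Of 18 further genes of mitosis, all 18 were above the naive mean at 24 h in both groups, at a median of 0.84 with CO and 0.93 without. Yet with CO 0 passed in limma (9, or 50%, at an unadjusted p under 0.05, with 25.9% of all probe sets). Without CO 2 did (11.1%), MELK (2.02 ± 0.60) and SPC25 (0.86 ± 0.23), while 6.79% of all probe sets were called higher. Against 4 h kidneys 10 of 18 rose with CO (55.6%) and 5 without (27.8%), among them the kinetochore gene NUF2 (1.68 ± 0.38 and 1.33 ± 0.38). Higher calls there made up 10.2% and 5.15% of all probe sets. The mitosis genes thus spread by donor as the cyclins did, with a mean above naive of 2.04 in the CO-treated kidney of donor 5 and of 0.20 in that of donor 8. WEE1, a kinase that holds back mitosis, rose with CO at 4 h (2.21 ± 0.56).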

How the data were processed

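Total RNA of each kidney was labelled with biotin and hybridised to 1 Affymetrix pig array, per the labels' protocols. The values are log2 levels that the authors deposited after RMA, per the submitters' processing notes; its version and settings are not given in the sources used here. They ran from 0.226 to 13.46. Arrays give no read depth, and the number of arrays limits the precision.

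The table holds 24123 probe sets, from which 124 control sets were dropped, so that 23999 entered the tests. GEO's platform annotation gave 10069 probe sets 1 symbol, 198 several and 13732 none; all 68 symbols stand unchanged in RefSeq. Background was the 97.5th percentile of 17 tag control probe sets. A linear model with 5 groups over 18 arrays was fitted in limma 3.58.1 (R 4.3.3; eBayes; two-sided; Benjamini-Hochberg adjustment over 23999 probe sets) and tested on simulated data. Figures and tables used Python 3.11.15. Members named in every comparison were the 23 measured of 35 listed by name, and in each comparison up to 6 with the largest rise and 6 with the largest fall that passed; the other members are given by value or as not passed. From lists of other cell cycle genes up to 3 that passed were named, and CDKN1A. Alternatives were a trend with robust fit, a filter on dim probe sets, quantile normalisation again, a common median, array weights, batch, donor as a block, probe set means, single pairs of groups and leaving out each array. The donor number in the labels pairs kidneys of 1 animal, and the deviations of the paired arrays correlated from -0.20 to 0.57 over 8 donors. The members and lists were chosen with earlier results of these data known. P-values set the group differences against the spread between these kidneys, pooled over the 5 groups and, in the main fit, without the donor pairing.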

Additional observations from a re-analysis of the deposited data

Results flagged for a closer look

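Of 148 groups of 4 kidneys over 37 named genes, 11 held a kidney whose gap to the nearest of the others was too large a share of the group's range by Dixon's 95% critical value. Chance gives about 1 in 20 groups. The CO-treated 24 h kidney of donor 5 stood alone above its group in 5 genes. CENPF had 5.14 there, against 2.46 to 2.84 in the other 3. CKS1B had 7.2, against 6.20 to 6.28. BUB3 had 8.12, against 7.95 to 7.97, KIF20A had 2.78, against 1.84 to 1.96, and CDK2AP1 had 8.38, against 7.94 to 8.0.

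The untreated 24 h kidney of donor 8 stood alone below its group in CDK5 (3.0, against 3.86 to 3.93) and CENPO (2.24, against 2.92 to 3.01). At 4 h the CO-treated kidney of donor 2 was alone above its group in TOP2A (3.5, against 2.55 to 2.59), and the untreated kidney of the same donor in MCM2 (4.76, against 3.86 to 3.94). The CO-treated kidney of donor 1 was alone below its group in AURKB (3.84, against 4.29 to 4.32), and the untreated kidney of donor 1 in CCND2 (4.54, against 5.39 to 5.52).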

How the results depend on the processing

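Among the members named in each comparison by the rule above, no change that passed reversed its sign under any alternative run. With array weights, 16 members passed in untreated 4 h kidneys against naive kidneys (1 without weights), 24 in CO-treated 4 h kidneys (14) and 30 in untreated 24 h kidneys (18). With batch as a fixed term, 0, 2, 10 and 0 passed against naive kidneys in CO-treated 24 h, untreated 24 h, CO-treated 4 h and untreated 4 h kidneys, and 0 and 0 between 24 h and 4 h kidneys without and with CO. With the mean of all probe sets, or only the groups compared, 0 passed in untreated 4 h kidneys, and with only the groups compared 12 passed between untreated 24 h and 4 h kidneys (19). With donor as a random replicate block, the counts were 20 in CO-treated 24 h, 19 in untreated 24 h, 13 in CO-treated 4 h and 1 in untreated 4 h kidneys against naive kidneys, 27 and 19 between 24 h and 4 h kidneys with and without CO, and 0 between CO-treated and untreated kidneys, as with donor as a fixed term, an alternative chosen after seeing the data. The random block changed the calls of CDC5L, CDC20, CDC25B, CKS2 and KIF21A and no other. Leaving out each array gave 5 to 21, 3 to 22, 0 to 13 and 0 to 12 members in the first 4 of these comparisons, 20 to 28 and 12 to 20 in the next 2, and 0 for CO. The cause of these shifts was not tested. Promoter motifs were not run. Probe signal limits MCM3, CENPH, CENPT, CCNB2 and KIF5C, which were below background on at least 1 array.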
